A study of Homo sapiens with 6 samples.

Results

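The kidney development transcription factors studied here are PAX2, PAX8, LHX1, SIX2, SIX4, EYA1, SALL1 and WT1, 8 named regulators of which 7 were paired with a row of the deposited table of 20169 genes. The members were chosen by symbol, through the GENCODE 29 name of each Ensembl identifier. The identifier that GENCODE 29 gives for LHX1 matched no row, so LHX1 was not analysed here. Of the 7 matched genes, 6 had enough reads for a test and PAX8 did not. RNA-seq of polyadenylated RNA was made from HEK293T, a human embryonic kidney line carrying a viral large T antigen. Each cell line held a landing pad, a genomic docking site for reporter genes. In 3 libraries the genotype was CAG landing pad, named for a strong composite promoter, and in 3 it was PGK landing pad, named for the promoter of the phosphoglycerate kinase gene. Both lines were monoclonal and shared the HEK293T background and the culture medium. The labels give no more than 1 clone per promoter, so promoter and clone cannot be told apart in any value below. Whether the 3 libraries of a line are separate cultures is not stated. The p-values therefore describe the spread between these libraries, which may be technical.

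In the embryo these proteins act in sequence to build the kidney. PAX2, PAX8 and LHX1 specify the intermediate mesoderm and the nephric duct. EYA1, SIX2, SIX4 and SALL1 act in the metanephric mesenchyme, where SIX2 keeps nephron progenitors from differentiating, and WT1 is needed first for survival of that mesenchyme and later in podocytes. EYA1 is a phosphatase and coactivator without a DNA-binding domain of its own, which works through homeodomain proteins such as SIX2, while SALL1 is a zinc finger repressor that binds the NuRD deacetylase complex. HEK293T came from embryonic kidney cultures, but the cell of origin is debated and neuronal and adrenal features have been described.

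Total counts were 22450538 to 23442542 in the CAG libraries and 21896246 to 22889708 in the PGK libraries, with 15298 to 15360 genes detected per CAG library and 14952 to 14980 per PGK library. Pearson correlations of log2 CPM across genes were 0.997 to 0.998 between libraries of a line and 0.972 to 0.973 between lines. Every pair of libraries from 1 line differed by more than sampling noise (chi-square per degree of freedom of 3.31 to 9.55), so none was counted as a duplicate. Markers of blood and endothelium summed to 1.57 to 2.26 CPM in CAG and to 1.31 to 1.71 CPM in PGK, and 12 of 13 were under 1 CPM in both lines. Levels are given as CPM, reads scaled to a common library size with TMM factors, as mean ± SD over 3 libraries, and a gene was called at an adjusted p under 0.05.

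For 5 of the 8 members a RefSeq promoter (GRCh38.p14, a window around the annotated start) could be read. Stretches of 30 bases are shown because they set side by side, at the same element, the promoters of SIX2, which differed between the lines, SIX4, which was not called, and PAX8, which had almost no reads. The capitals mark CCAAT, searched with its reverse ATTGG on both strands.
SIX2 (chr2:45009487-45009516, minus strand): cagataaccggaCCAATcagggcgcgggcc
SIX4 (chr14:60724373-60724402, minus strand): aatgcgaaatagCCAATgaggtggctaggc
PAX8 (chr2:113278986-113279015, minus strand): gcacccagccagCCAATccgcggcctacga
The first base of the match lay at position -52 for SIX2, at -39 for SIX4 and at -82 for PAX8, counted with the annotated start at 0. PAX8 had a further match at -240. PAX2 and WT1, which have more than 1 window each, had no match to it. The element was found in 34.6% of 35116 promoters of the same length, and a match is a description of the letters only. A second element, the GC box (GGGCGG, reverse CCGCCC), was found in a WT1 promoter at -160, in SIX2 at -220 and -163 and in SIX4 at -196, and in 45.0% of all promoters. WT1 is shown for this element.
WT1 (chr11:32435682-32435711, minus strand): gctccctcggacCCGCCCtcaccccagctg

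Of the 6 tested members, 1 was called higher in the CAG line, 3 were called lower and 2 were not called. EYA1 was 2.04-fold higher, WT1 and SIX2 were 1.56-fold and 1.55-fold lower, and SALL1 was 1.20-fold lower. SIX4 and PAX2 did not pass the test, and PAX8 was at 0 in nearly every library. Among all 13103 genes tested, 62.0% were called, 31.6% higher and 30.4% lower, so 4 calls among 6 members do not set these genes apart. The 3 CAG libraries did not overlap with the 3 PGK libraries for 4 members, as for 65.5% of all genes tested. The median log2 fold change (CAG over PGK) was -0.28 over the 6 members and -0.0021 over all genes tested. In whole-culture RNA, fewer expressing cells and less RNA per cell cannot be told apart.

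**Figure D1:**
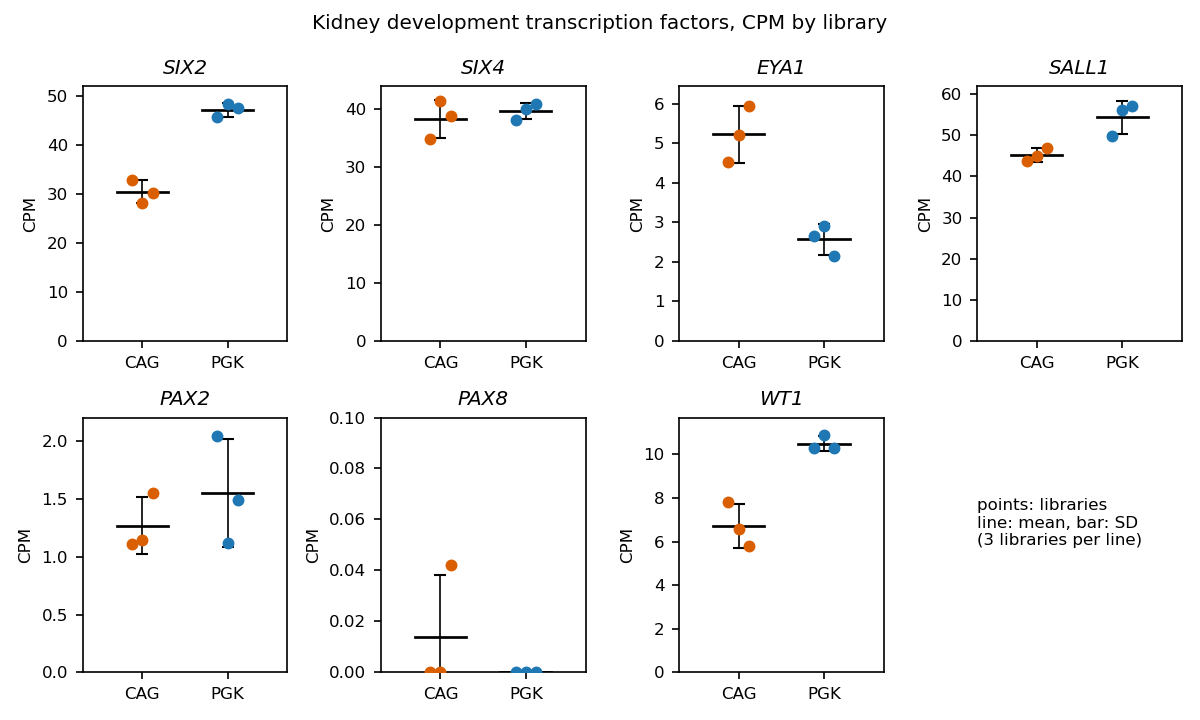
CPM of each matched member in each library, with the CAG line left of the PGK line; points are libraries, horizontal lines the mean and bars the SD over 3 libraries, and each axis starts at 0 on its own scale. EYA1 lies higher in all CAG libraries (4.52 to 5.96 CPM, against 2.15 to 2.92 CPM in PGK), WT1, SIX2 and SALL1 lie lower in all of them, and SIX4 and PAX2 overlap.

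SIX2, the homeodomain factor that maintains nephron progenitors, had 32.8, 28.1 and 30.2 CPM in the CAG libraries and 45.6, 48.3 and 47.4 CPM in the PGK libraries. All CAG libraries lay below all PGK libraries. The log2 fold change was -0.63 (SE 0.06), with an adjusted p of 9.6e-08 by the quasi-likelihood test of edgeR (Benjamini-Hochberg). SIX4, a related homeodomain factor of kidney and muscle development, had 34.8, 41.2 and 38.6 CPM in CAG and 38.1, 39.9 and 40.8 CPM in PGK. The libraries of the lines overlapped, and the log2 fold change of -0.05 (SE 0.07) did not pass, at an edgeR adjusted p of 0.524. Without CAG replicate 1 it was 0.0070, so its sign depended on that library.

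EYA1, the phosphatase that works with homeodomain partners, had 4.52, 5.21 and 5.96 CPM in CAG and 2.65, 2.92 and 2.15 CPM in PGK. It was the one tested member that was higher in every CAG library. The log2 fold change was 1.03 (SE 0.15), with an edgeR adjusted p of 1.16e-05. SALL1, the repressor of the metanephric mesenchyme, had 43.6, 44.9 and 47.0 CPM in CAG and 49.8, 56.0 and 57.2 CPM in PGK. The lines did not overlap, although the highest CAG library and the lowest PGK library lay close together. Its log2 fold change was -0.27 (SE 0.06), with an edgeR adjusted p of 8.86e-04. In GENCODE 29, EYA1 and SALL1 each overlap transcripts of uncertain function on the other strand, and EYA1 also overlaps the pseudogene TRAPPC2P2. No source used here gives the strand setting of the counting, so reads of such partners cannot be told apart from theirs.

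PAX2, a paired-box factor of the nephric duct and the early nephron, was barely expressed, with 1.11, 1.14 and 1.55 CPM in CAG and 2.05, 1.12 and 1.49 CPM in PGK. These levels rest on 25, 27 and 37 counts in CAG and 44, 25 and 34 counts in PGK, and the lines overlapped. The log2 fold change of -0.28 (SE 0.24) did not pass, at an edgeR adjusted p of 0.323. PAX8, its partner in specifying the nephric lineage, had a single count, in CAG replicate 3, and 0 counts in the other two CAG libraries and in all PGK libraries. A count of 0 allows up to 3 counts, or 0.126 to 0.133 CPM in a CAG library and 0.131 to 0.140 CPM in a PGK library, counting error only. PAX8 overlaps the antisense transcript PAX8-AS1, so its level is uncertain where the counting may set aside reads shared by both genes.

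WT1, a zinc finger factor named after Wilms tumour, had 7.81, 6.57 and 5.79 CPM in CAG and 10.3, 10.9 and 10.3 CPM in PGK. All CAG libraries lay below all PGK libraries. The log2 fold change was -0.64 (SE 0.11), with an edgeR adjusted p of 3.52e-05. WT1 overlaps its antisense transcript WT1-AS, which limits the reading of its level in the same way as for PAX8.

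Levels can be compared between genes only per length, here as CPM per kilobase of the union of annotated exons. In the CAG line the order of these levels was SIX2 at 13.8 ± 1.06, SALL1 at 7.98 ± 0.299, SIX4 at 5.74 ± 0.485, WT1 at 1.63 ± 0.247, EYA1 at 0.555 ± 0.0761 and PAX2 at 0.203 ± 0.0395 CPM per kilobase, with PAX8 last. Adjacent genes in this order did not overlap over the 3 libraries. The order was the same in the PGK line, where SIX2 was at 21.3 ± 0.629, SALL1 at 9.60 ± 0.699, SIX4 at 5.95 ± 0.206, WT1 at 2.55 ± 0.0818, EYA1 at 0.273 ± 0.0418 and PAX2 at 0.249 ± 0.0747 CPM per kilobase. There EYA1 and PAX2 overlapped and are not ordered beyond their spread. SIX2 stood highest per length in both lines.

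Of the summed per-length level of its gene family, SIX2 held 29.8% to 33.3% in the CAG libraries and 42.8% to 44.2% in the PGK libraries, while SIX4 held 11.7% to 14.5% in CAG and 11.9% to 12.3% in PGK. The share of SIX2 was lower in every CAG library, and that of SIX4 overlapped between the lines. SIX3, the forebrain factor that lies beside SIX2 on chromosome 2, was too low to test, with 17, 19 and 10 counts in CAG and 3, 3 and 5 counts in PGK. Its CAG over PGK ratio was 3.98 (counting interval 2.03 to 8.51), in the opposite direction to SIX2. SIX3 was named after its values were seen.

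In the EYA family EYA1 was the lowest member in both lines, so its higher level in CAG moved little of the family total. EYA1 made up 2.29% to 3.06% of the summed per-length level of the 4 EYA genes in the CAG libraries and 1.22% to 1.51% in the PGK libraries. EYA3, the most abundant of them, held 57.7% to 60.0% in CAG and 46.0% to 47.5% in PGK, and rose by 0.45 (SE 0.05) on the log2 scale. EYA4, a paralog known from heart and hearing disorders and named after its values were seen, held 20.7% to 23.6% in CAG and 31.9% to 32.6% in PGK, with a log2 fold change of -0.42 (SE 0.06). EYA2, also named with its value known, was at -0.20 (SE 0.08) with an edgeR adjusted p of 0.0506, and passed without CAG replicate 1 (0.0352) or PGK replicate 3 (0.0350). In the SALL family, SALL1 held 32.0% to 33.2% of the summed per-length level in CAG and 40.0% to 44.5% in PGK, while SALL2, a more widely expressed paralog, held 61.1% to 62.6% in CAG and 48.2% to 53.4% in PGK. SALL2 rose by 0.41 (SE 0.05). SALL4, a pluripotency factor, had 17, 32 and 27 counts in CAG and 0, 2 and 3 counts in PGK, a CAG over PGK ratio of 14.5 (counting interval 5.93 to 45.8).

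Of 22 tested other genes of the members' families, with DACH and LIM-homeodomain genes, 3 were called higher and 10 lower (59.1% called). Their median log2 fold change was -0.22. PAX3 and PAX6, factors of neural development, held 31.5% to 33.7% and 31.5% to 35.2% in CAG and 28.3% to 29.8% and 29.4% to 32.2% in PGK of the summed per-length PAX level. PAX9, a factor of tooth and pharyngeal development, held 25.7% to 27.8% in CAG and 26.1% to 28.7% in PGK, while PAX2 held 3.71% to 5.23% in CAG and 3.17% to 5.82% in PGK. PAX3 had 12.4 ± 0.881 CPM in CAG and 13.0 ± 0.436 CPM in PGK and did not pass, and PAX6 had 32.4 ± 1.25 CPM in CAG and 36.2 ± 1.36 CPM in PGK with a log2 fold change of -0.16 (SE 0.06, edgeR adjusted p 0.0309). PAX9 had a log2 fold change of -0.26 (SE 0.09, edgeR adjusted p 0.0238). The calls of PAX6 and PAX9 were each lost when 1 of 3 libraries was left out, with edgeR adjusted p of 0.0679, 0.133 and 0.109 for PAX6 (without CAG replicate 2, CAG replicate 3 and PGK replicate 3) and 0.0510, 0.0970 and 0.0749 for PAX9 (without CAG replicate 1, CAG replicate 3 and PGK replicate 2). PAX3, PAX6 and PAX9 were named after their values were seen. PAX7, a muscle and neural crest factor, was at 0.411 ± 0.186 CPM in CAG and 1.95 ± 0.177 CPM in PGK. Its log2 fold change was -2.22 (SE 0.28). The forebrain LIM-homeodomain gene LHX8 changed by -1.30 (SE 0.12) and DACH2, a cofactor in the network of EYA1, by -0.87 (SE 0.15). Of the 50 neighbours of PAX7, 44 were called lower, and their median was -0.61.

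**Figure D2:**
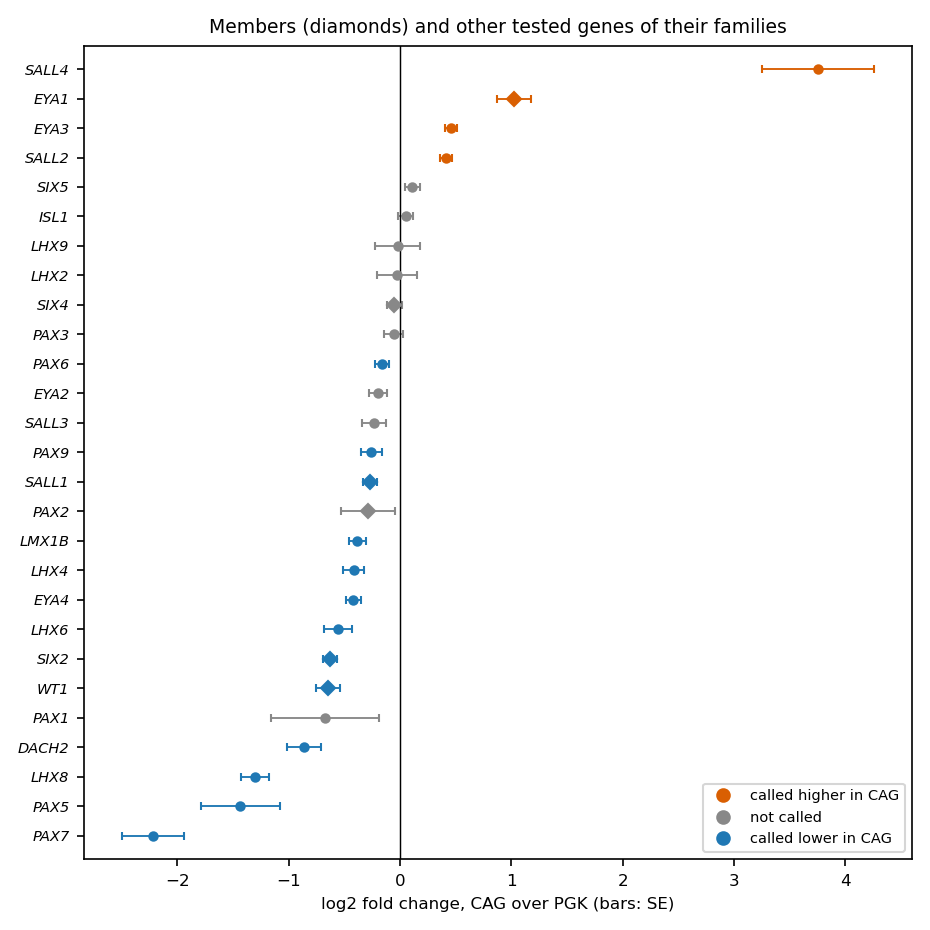
Log2 fold change (CAG over PGK) with its SE for the 6 tested members, drawn as diamonds, and for other tested genes of their families; colours give the call at an adjusted p under 0.05. SALL4 lies highest, followed by EYA1 at 1.03, EYA3 at 0.45 and SALL2 at 0.41, and SIX2 at -0.63 and WT1 at -0.64 lie among the lower genes.

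The genes around each member were then compared with it, as the 25 tested genes on either side in annotation order. SIX2 lay below 47 of its 50 neighbours, whose median log2 fold change was -0.04, and WT1 lay below 49 of 50, with a median of -0.01. EYA1 lay above 45 of its 50 neighbours (median 0.0059), of which 17 were called higher and 12 lower. SALL1 lay below 39 of 50 (median -0.02). Around these 4 called members the neighbours' medians thus lay within 0.04 of no change. Around PAX2, 33 of its 50 neighbours were called lower and 4 higher, with a median of -0.25 beside its own -0.28. SIX4 lay above 30 and below 20 of its neighbours, whose median was -0.10. Some of these neighbours belong to the lists described below: HNF4G and HEY1 lie 17 and 22 tested genes from EYA1, EPCAM 12 from SIX2 and LDB1 19 from PAX2.

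**Figure D3:**
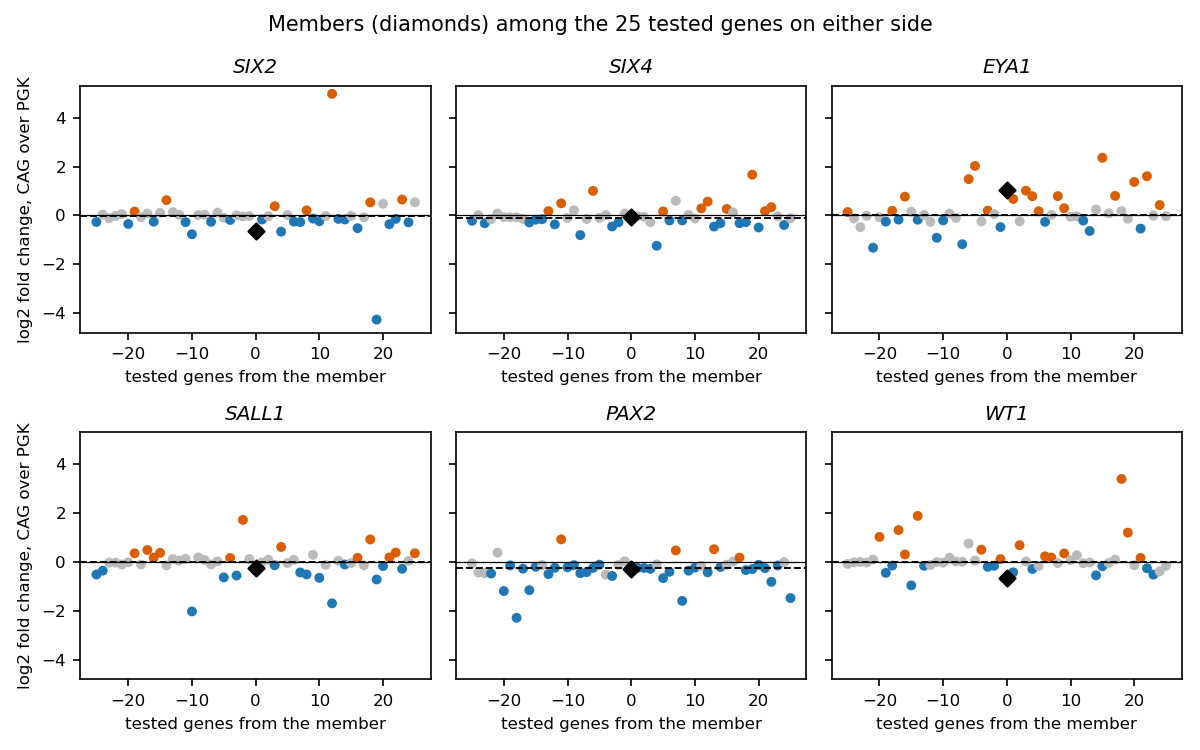
Log2 fold change (CAG over PGK) of each tested member (black diamond) and of the 25 tested genes on either side in chromosome order; orange points were called higher in CAG, blue points lower and grey points were not called, and the dashed line is the median of the neighbours. The diamonds of SIX2 and WT1 lie below 47 and 49 of 50 neighbours, and that of PAX2, at -0.28, lies close to its dashed line at -0.25.

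Partner proteins of these factors went in both directions. Of 31 tested partners, 11 were called higher and 10 lower (67.7% called), with a median log2 fold change of 0.02. BASP1, which turns WT1 from an activator into a repressor, had 9.31, 7.71 and 9.06 CPM in CAG and 49.7, 46.6 and 44.6 CPM in PGK. All CAG libraries were far below all PGK libraries, and the log2 fold change was -2.43 (SE 0.08) with an edgeR adjusted p of 1.45e-14, while the median of its 50 neighbours was -0.11. WTIP, a LIM protein that binds WT1, moved the other way, at 6.26 ± 0.992 CPM in CAG and 2.51 ± 0.698 CPM in PGK (log2 fold change 1.32, SE 0.17). WTIP lies on chromosome 19 among neighbours of which 46 of 50 were also called higher. Their median was 0.55, and WTIP lay above 45 of the 50.

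The NuRD complex, which SALL1 recruits, did not move one way. Of its 11 listed subunits 4 were called higher, 3 lower and 4 were not called. The deacetylase HDAC1 rose by 0.63 (SE 0.05), the histone-binding proteins RBBP4 and RBBP7 by 0.75 (SE 0.05) and 0.48 (SE 0.04), and MTA1 by 0.22 (SE 0.05). The called lower subunits were MBD3 at -0.36 (SE 0.06), MTA2 at -0.24 (SE 0.04) and GATAD2A at -0.13 (SE 0.05), the last not called without CAG replicate 2 (edgeR adjusted p 0.107). HDAC2, CHD4, MTA3 and GATAD2B did not pass. HDAC1 and RBBP4 each lay on chromosome 1 among genes that were higher too, with 43 and 41 of 50 neighbours called higher and medians of 0.62 and 0.60. MBD3 and GATAD2A lay on chromosome 19 among lower genes, with 40 and 45 of 50 neighbours called lower and medians of -0.43 and -0.58. For MTA2, 20 of 50 neighbours were called lower (median -0.06), and for RBBP7, 30 of 50 were called higher (median 0.21). The Groucho corepressors, of the kind that homeodomain and paired-box proteins recruit, were split too, with 2 of 4 higher and 1 lower. TLE4 had 249 ± 4.86 CPM in CAG and 177 ± 5.69 CPM in PGK (log2 fold change 0.49, SE 0.05), and TLE3 had 159 ± 3.01 CPM in CAG and 107 ± 7.26 CPM in PGK (log2 fold change 0.57, SE 0.05). TLE2, at 3.36 ± 0.217 CPM in CAG and 6.82 ± 0.936 CPM in PGK, changed by -1.02 (SE 0.13), and 40 of its 50 neighbours were called lower. The median of those 50 was -0.43, and TLE2 lay below 49 of them. Of 50 neighbours each, 39 of TLE3 and 12 of TLE4 were called higher, with medians of 0.36 and -0.02. TLE1 was at -0.08 (SE 0.05) and did not pass, but was called without PGK replicate 2 (edgeR adjusted p 0.0235). Apart from HDAC1, RBBP4 and TLE2, these subunits and corepressors were named with their values known. Many of the other genes named here, among them BASP1, RBBP4, PAX6, EYA4, DLL1, LGR5, NPNT, ACTN4 and KRT8, also overlap an annotated gene on the other strand, with the same limit as for WT1. LDB1, a cofactor of LIM-homeodomain proteins picked with its value known, had a log2 fold change of -0.30 (SE 0.06).

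Other transcription factors of the developing nephron and ureteric bud went in both directions. Of 28 tested, 11 were called higher and 6 lower (60.7% called), with a median of -0.05, and 15 of the 41 matched genes were under 1 CPM in both lines. POU3F3, a POU factor of the distal nephron and the brain, had 19.6, 16.4 and 18.8 CPM in CAG and 63.6, 61.4 and 60.8 CPM in PGK. Its log2 fold change of -1.76 (SE 0.07) was the most negative in this list among called genes, and it lay below 49 of its 50 neighbours. EMX2, a homeobox gene of the ureteric bud, changed by -0.97 (SE 0.11). CITED1, a marker of the earliest nephron progenitors in the mouse that was picked with its value known, had 64.6 ± 4.98 CPM in CAG and 121 ± 3.60 CPM in PGK (log2 fold change -0.91, SE 0.06). CITED1 overlaps PIN4 on the other strand. FOXC1, a forkhead factor of the nephrogenic mesoderm, rose to 268 ± 7.89 CPM in CAG, against 136 ± 8.46 CPM in PGK (log2 fold change 0.98, SE 0.05). FOXC1 had 29 tested neighbours in its window, of which 18 were called higher and 2 lower. Their median was 0.32, and FOXC1 lay above 27 of them. TFAP2A rose by 0.75 (SE 0.05), and 29 of its 50 neighbours were called higher. HNF4G, a nuclear receptor of proximal tubules, rose by 0.80 (SE 0.22) at 1.97 ± 0.288 CPM in CAG and 1.13 ± 0.260 CPM in PGK.

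Signals that act on the same cells were also split, with 11 of 31 tested genes higher and 9 lower (64.5% called) and a median of 0.03. GDNF, the growth factor that EYA1 and PAX2 help to induce in the mouse mesenchyme, had 0.527 ± 0.141 CPM in CAG and 0.600 ± 0.0510 CPM in PGK and did not pass (log2 fold change -0.18, SE 0.32, edgeR adjusted p 0.637). Its receptor RET was at 3.65 ± 0.252 CPM in CAG and 3.36 ± 0.193 CPM in PGK and did not pass either (log2 fold change 0.12, SE 0.14, edgeR adjusted p 0.446). SLIT2, the ligand of a pathway that restricts the GDNF domain, had 499, 514 and 501 CPM in CAG and 165, 178 and 167 CPM in PGK (log2 fold change 1.57, SE 0.05). Its receptor ROBO2 rose by 1.52 (SE 0.09). ITGA8, the integrin of the mesenchyme, rose by 0.90 (SE 0.12), its ligand NPNT by 0.69 (SE 0.17), and the matrix proteins FREM1 and FREM2 by 1.85 (SE 0.29) and 0.90 (SE 0.08). GDNF, RET, ROBO2, ITGA8, NPNT and FREM2 were chosen after their values were seen. Also called higher were 45 of 50 neighbours of ROBO2, ITGA8 and FREM2 each and 43 of 50 neighbours of NPNT. The neighbours' medians were 0.55 for ROBO2, 0.61 for ITGA8, 0.52 for FREM2 and 0.51 for NPNT. ROBO2 lay above 47 of its 50 neighbours, ITGA8 and FREM2 above 40 each and NPNT above 34. The neighbours of FREM1 had a median of -0.04.

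The Notch ligand genes JAG1 and DLL1, which act in patterning the nephron, were lower. JAG1 had 3.92 ± 0.518 CPM in CAG and 9.07 ± 0.581 CPM in PGK, with a log2 fold change of -1.21 (SE 0.12), and DLL1 changed by -1.05 (SE 0.12). DLL1 had 29 tested neighbours in its window, of which 19 were called lower and 4 higher. Their median was -0.32, and DLL1 lay below 28 of them. Around JAG1 the neighbours' median was 0.03. The effector genes differed in direction, since HEY1 had 281 ± 3.86 CPM in CAG and 92.4 ± 4.74 CPM in PGK (log2 fold change 1.60, SE 0.05), while HES1, picked with its value known, had -0.71 (SE 0.06), beside a median of -0.64 over its neighbours. LGR5, a receptor found in nephron stem cells of the mouse, changed by -0.76 (SE 0.13).

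**Figure D4:**
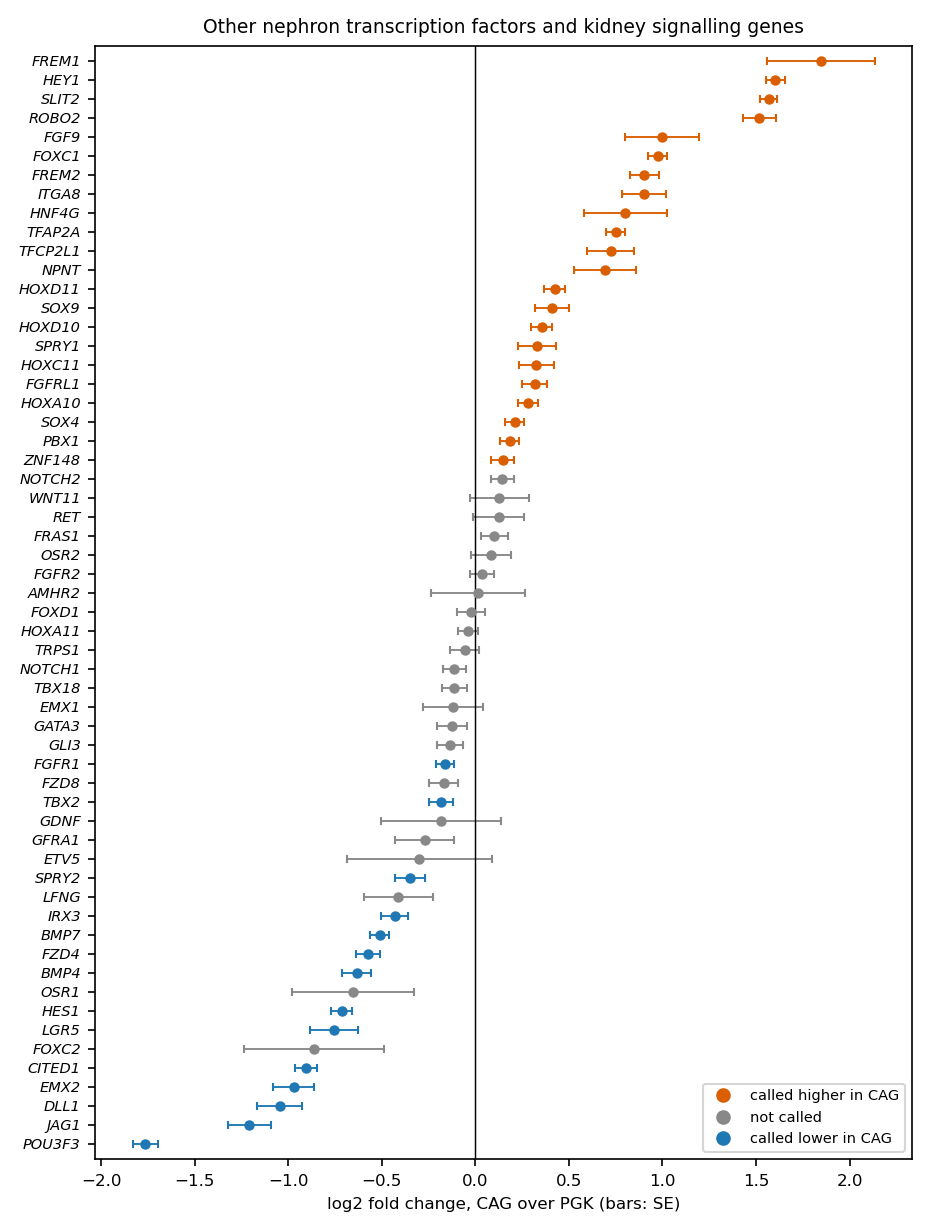
Log2 fold change (CAG over PGK) with its SE for tested transcription factors of the nephron and ureteric bud and tested kidney signalling genes, coloured by call at an adjusted p under 0.05. FREM1, HEY1, SLIT2 and ROBO2 lie highest at 1.52 to 1.85, and POU3F3 lies lowest at -1.76.

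Genes of mature kidney cells were read as a check on the tissue. Of 17 matched podocyte genes 6 were under 1 CPM in both lines. The list summed to 899 to 912 CPM in CAG and 681 to 716 CPM in PGK. Of the 12 tested, 8 were called higher and 1 lower (75.0% called), with COL4A4, a chain of glomerular collagen, at 2.16 (SE 0.26), the laminin LAMB2 at 0.78 (SE 0.06), the actin crosslinker ACTN4 at 0.56 (SE 0.05) and the slit protein gene KIRREL1 at -0.24 (SE 0.06). ACTN4 and LAMB2 are broadly expressed genes, and 40 of the 50 neighbours of ACTN4 and 37 of those of LAMB2 were called higher. Of 30 tubule and collecting duct genes 19 were under 1 CPM in both lines and 7 were at 0 in all libraries, with sums of 260 to 270 CPM in CAG and 214 to 225 CPM in PGK. Of the 14 tested, 9 were higher and 1 lower (71.4% called), with a median of 0.87. The keratin gene KRT8 had 5.35 ± 0.427 CPM in CAG and 1.09 ± 0.348 CPM in PGK, and the cadherin CDH1 had 4.82 ± 0.320 CPM in CAG and 1.17 ± 0.0675 CPM in PGK, with log2 fold changes of 2.30 (SE 0.18) and 2.04 (SE 0.16). EPCAM, an epithelial adhesion gene, had 26, 22 and 30 counts in CAG and 0, 0 and 2 counts in PGK, a CAG over PGK ratio of 37.1 (counting interval 9.93 to 312). CA12, a carbonic anhydrase, changed by -0.40 (SE 0.11).

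Markers of other cell types moved beside the members, and their part in the members' differences was not tested. Of 10 tested neuronal genes, 6 were higher and 3 lower (90.0% called, beside 62.0% of all genes tested). The 17 matched genes summed to 234 to 253 CPM in CAG and 118 to 127 CPM in PGK, and 8 were under 1 CPM in both lines. Most of the difference between these sums was UCHL1, at 136 ± 7.75 CPM in CAG and 27.1 ± 0.798 CPM in PGK. UCHL1 rose by 2.32 (SE 0.06), ENO2 by 2.32 (SE 0.15) and INA by 2.13 (SE 0.07), while RBFOX3 changed by -1.18 (SE 0.21), SYP by -0.35 (SE 0.06), and NEFM had 1, 4 and 1 counts in CAG and 424, 387 and 438 counts in PGK. Of 18 adrenal genes 15 were under 1 CPM in both lines, among them CYP17A1 and CYP21A2 of steroid synthesis with 0 counts in all libraries. The adrenal list summed to 43.8 to 46.1 CPM in CAG and 46.9 to 48.6 CPM in PGK. Most of both sums was FDX1, at 40.8 ± 1.44 CPM in CAG and 41.8 ± 0.775 CPM in PGK. FDX1 was named with its value known and did not pass. Of 5 tested adrenal genes 1 was higher and 2 were lower (60.0% called). The higher gene was NR5A1, under 1 CPM in both lines and named with its value known. It had 10, 13 and 12 counts in CAG and 2, 2 and 1 counts in PGK, a CAG over PGK ratio of 6.66 (counting interval 2.60 to 21.8). NR0B1, a nuclear receptor of the adrenal and gonad, had 0 counts in CAG and 30, 26 and 41 counts in PGK, at least 11.3-fold lower against a floor of 3 counts per library, and CHGA changed by -0.81 (SE 0.16). Of 9 tested fibroblast and stromal genes 6 were higher and 1 lower (77.8% called). The 15 genes summed to 742 to 765 CPM in CAG and 565 to 571 CPM in PGK. Most of both sums was VIM, at 631 ± 12.2 CPM in CAG and 455 ± 3.14 CPM in PGK. VIM was named with its value known. Its log2 fold change was 0.47 (SE 0.04), and 43 of its 50 neighbours were called higher, with a median of 0.62. COL3A1 rose by 2.02 (SE 0.15), LUM by 1.91 (SE 0.32) and PDGFRA by 1.43 (SE 0.28), and ACTA2, which overlaps FAS on the other strand, changed by -2.19 (SE 0.16). Every call in these lists is from the same edgeR test, adjusted over all genes tested.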

How the data were processed

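The authors deposited whole-number read counts per Ensembl gene for 6 libraries, not normalized; 0 columns were left over. The submitters' processing notes name hg19, featureCounts 2.0.3, the aligners HISAT2 2.2.1 and Bowtie2 2.5.1, and the trimmer cutadapt 4.6. Annotation, strand setting and treatment of multi-mapping reads: not given in the sources used here. GENCODE 29 (GRCh38) named 19346 of 20169 rows and served for names, chromosomes, order, overlaps and exon lengths only. Counts were filtered with filterByExpr, scaled by TMM and compared as CAG over PGK in edgeR 4.0.16 (R 4.3.3; robust quasi-likelihood, two-sided), with Benjamini-Hochberg adjustment over 13103 genes. An SE was taken as the absolute log2 value divided by the square root of F. Ratios of low counts carry 95% exact binomial intervals, which like the floors of 3 counts cover counting error only. The scripts were tested on simulated counts. The members and the 10 lists beside them were chosen with earlier results of these data known. Named genes were all members and, per list and direction, up to 3 called genes with the largest change and at least 1 CPM in the higher line; others are marked, and a few genes are not reported here. Alternatives included DESeq2 1.42.0 and limma 3.58.1 (voom).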

Additional observations from a re-analysis of the deposited data

How the results depend on the processing

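Of 14 alternatives, none changed a member's call under RLE size factors, library size only, no low-count filter, a filter of 1 CPM in 3 libraries, DESeq2, limma-voom, the replicate block or leaving out any library. Over all 14, log2 fold changes ran from 0.91 to 1.13 for EYA1, -0.69 to -0.58 for SIX2, -0.77 to -0.55 for WT1, -0.33 to -0.23 for SALL1 and -0.47 to -0.04 for PAX2. Leaving out 1 library moved SIX4 between -0.1088 and 0.0070; the positive value came without CAG replicate 1 (edgeR adjusted p 0.935).

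When edgeR tested for a change beyond 1.5-fold, EYA1 was still called, but SIX2 at -0.63, WT1 at -0.64 and SALL1 at -0.27 were not (edgeR adjusted p 0.531, 0.660 and 1), leaving 0 members lower. That stricter question left 954 genes higher and 558 lower among all genes. It left 1 family gene higher and 3 lower, 2 nephron factors higher, 2 partners higher and 2 lower, 6 signalling genes higher and 3 lower, 3 podocyte genes higher and 0 lower, 5 tubule genes higher and 0 lower, 1 adrenal gene lower and 3 fibroblast genes higher. Only counts that moved by more than 1.5-fold are listed, so a direction or list left out is not a count of 0. ACTA2 stayed called lower. Of the named neuronal genes, UCHL1, ENO2 and INA stayed higher and NEFM and RBFOX3 lower, while the call of SYP was lost. Adrenal genes called higher numbered 0 with the 1 CPM filter, 2 without a filter and 1 to 2 when 1 library was left out. Of 70 other named genes run, 63 kept their side of the threshold and direction under every alternative that could be fitted except the 1.5-fold test, and 42 of all 70 did so under that test too. The other 7 were PAX6, PAX9 and GATAD2A, whose calls were lost under some settings, EYA2 and TLE1, which passed under some, and CHD4 and MTA3, which did not pass and changed sign when 1 library was left out. The 42 include PAX3, GDNF, RET, HDAC2 and GATAD2B, which did not pass in the main test and could not pass the stricter one. The 42 is thus not a count of calls kept. PAX6 was lost with DESeq2 (adjusted p 0.0547) and library size only (0.0866), PAX9 with DESeq2 (0.0703) and GATAD2A with library size only (0.0695). EYA2 passed with RLE size factors (0.0469), no low-count filter (0.0420) and the replicate block (0.0309). With 1 library left out CHD4 ran from -0.0090 (without PGK replicate 3) to 0.0511, and MTA3 from -0.0204 (without CAG replicate 1; -0.0159 without PGK replicate 3) to 0.0404.

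Same-numbered libraries deviated together with correlations of 0.108, 0.103 and 0.0131, so the numbers were not taken to pair them, although each CAG library correlated best with its own number. With the replicate block 4461 genes were called higher and 4400 lower, and the members' calls stayed at 1 higher and 3 lower. With exon lengths from the longest transcript, the members kept their order by level in both lines. EYA1 then stood at 1.21 ± 0.166 CPM per kilobase in CAG and 0.595 ± 0.0910 in PGK, against 0.555 and 0.273 with the union of exons. The family shares were not recomputed with the longest transcript. PAX8, with 1 count in all, was too low to test at this depth, and the reason for its low count was not tested.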
